A study of Rattus norvegicus with 12 samples.

Results

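Rat H9c2 cells given methylmalonic acid (MMA) alone were compared with control cells, using 3 libraries of each, 6 of the 12 libraries in the series. They were chosen by their labelled treatment. The other 6 libraries came from cells given folic acid (FA) alone and cells given both agents (MMA+FA), 3 of each, and they serve to set the effect of MMA without FA beside its effect with FA. They also enter the filter on low genes and the fit that estimates the spread. All groups are the same cell line, H9c2, which derives from embryonic rat heart and grows as proliferating myoblasts. The sources used here do not give doses, exposure times or the vehicle of the control cells. The labels do not say whether libraries of a group came from separate cultures, so p-values measure only the spread between these samples, which may be technical.

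MMA is a dicarboxylic acid that cells make when methylmalonyl-CoA, an intermediate in the breakdown of propionate, odd-chain fatty acids and several amino acids, is not converted to succinyl-CoA. That conversion needs the enzyme Mmut and a cobalamin cofactor, so MMA builds up in cobalamin deficiency and in inborn errors of the pathway. It is known as an interfering agent of mitochondrial energy metabolism. The labels call the cells cardiomyocytes, and the markers went only partly with that name. Of 11 cardiomyocyte markers in the table, 3 were abundant enough to be tested (Tnnt2, Nkx2-5 and Gata4), and the sarcomere genes Myh6, Myh7 and Actc1 and the calcium release channel gene Ryr2 stayed at or below 0.25 TPM in all 12 libraries. Of 12 skeletal myoblast markers, 5 were abundant enough to be tested, and Pax7, Myf5 and Myf6 stayed at or below 0.17 TPM in all 12 libraries. Among the 5, Myod1 stood at 72.6 ± 2.57 TPM in control libraries and 60.0 ± 1.29 TPM with MMA (SD, n = 3 each). None of the 5 differed at a limma adjusted p under 0.05 in the TPM as deposited. All 7 smooth muscle markers were tested. In control libraries Acta2 and Tagln stood at 4300 ± 28.0 and 2170 ± 5.15 TPM, but Myh11 at 2.62 ± 0.0917 TPM.

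Each value is a TPM, a share of a library's RNA corrected for transcript length, made from polyadenylated RNA. It does not record how deeply a library was sequenced, so depth is unknown here. Tests covered the 12263 of 30562 genes whose TPM averaged 1 or more across the 12 libraries. A level of 1 TPM was reached by 12276 ± 15.4 genes in control libraries against 12193 ± 44.8 with MMA (SD, n = 3). Transcripts of the mitochondrial genome held 9.34% to 9.87% of the total in control libraries and 10.3% to 11.4% with MMA, and the 100 most abundant genes held 35.3 ± 0.298% and 36.9 ± 0.411%. A larger share for abundant genes lowers the TPM of all others. Each difference is for this reason reported on the deposited scale and beside it after median-ratio scaling ("scaled"), under which the median gene does not move. In bulk RNA, fewer cells of a type and less RNA per cell cannot be told apart. Summed markers of endothelium stayed between 0.35 and 0.65 TPM in the 6 libraries, those of leukocytes between 6.52 and 7.38 TPM in control libraries and 5.27 and 6.44 TPM with MMA, and those of epithelium between 21.7 and 24.2 and between 26.5 and 27.9 TPM. Fibroblast and mesenchyme markers, of which 11 of 14 were tested, summed to between 10300 and 11100 TPM in control libraries and between 10600 and 11900 TPM with MMA, which overlap. Summed cardiomyocyte markers lay between 32.7 and 38.3 TPM in control libraries and between 38.7 and 40.9 TPM with MMA, and skeletal myoblast markers between 225 and 240.0 and between 208 and 215 TPM. Members of both lists went both ways. Mean Tnnt2 went from 16.1 to 21.4 TPM and Gata4 from 6.41 to 6.03 TPM. Myod1 and Cdh15 (136 to 127 TPM) were lower, and Des (3.04 to 4.2 TPM) and Tnnt1 (4.63 to 5.33 TPM) higher. As deposited, 1 cardiomyocyte marker had a limma adjusted p under 0.05, and it lost this when single libraries were left out. The part of these markers in the results below was not tested.

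MMA alone shifted a large part of the transcriptome by small amounts. As deposited, 2501 of 12263 genes were called at a limma adjusted p under 0.05 (20.4%), of which 472 were higher (3.85%) and 2029 lower (16.5%) with MMA. After scaling, 1001 were called higher (8.16%) and 847 lower (6.91%). Scaling centres the median gene by construction, so these counts cannot decide whether the excess of lower genes was real. On TPM without mitochondrially encoded genes, 560 were called higher and 1594 lower. The median gene lay at -0.072 on the log2(TPM + 1) scale as deposited and at 0 after scaling, and 67.5% of genes had a negative difference before scaling. Under both scalings and in 1 direction, 1319 genes were called (10.8%), 472 of them higher and 847 lower, and none was called in opposite directions. The median size of the called differences as deposited was 0.271 on the log2 scale. A difference of at least 1 on that scale was reached by 5 higher and 5 lower genes.

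The number of calls rested partly on single libraries. It was 1173 without MMA replicate 3, 1249 without control replicate 1 and 1311 without control replicate 3, and between 1697 and 1898 without any of the others. Of the calls as deposited, 169 of 472 higher and 770 of 2029 lower genes were called in each of the 6 fits that left out 1 library. Genes named below held in all 6 unless the loss is given. Those named for the largest differences were taken only from genes whose control and MMA libraries did not overlap. The lack of overlap is therefore a condition of their choice and adds no support. Of all tested genes, 10.5% were higher and 34.8% lower without overlap as deposited, and 21% and 20.6% after scaling.

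**Figure D1:**
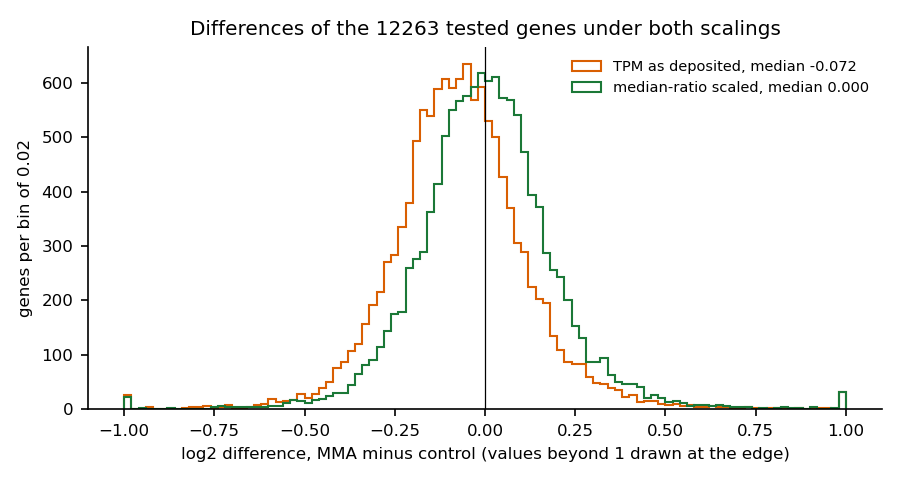
Histogram of the log2 difference (MMA minus control, log2(TPM + 1) scale) of the 12263 tested genes, for TPM as deposited and after median-ratio scaling. The deposited values centre at -0.072 and the scaled values at 0, with the bulk of genes close to the centre under both.

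Edn1, which encodes the precursor of the vasoconstrictor peptide endothelin-1, held 12.2, 17.9 and 17.4 TPM in the control libraries and 28.8, 32.5 and 35.4 TPM with MMA. The groups were separated by a wide gap, and Edn1 rose by 0.99 on the log2 scale (SE 0.13, limma adjusted p = 0.00141), or by 1.07 after scaling (adjusted p = 0.00125). Of the 4 tested genes of the endothelin list, which also covers its receptors and converting enzymes, Edn1 was the one called. Rbm3, a cold-inducible RNA-binding protein, held 236, 257 and 253 TPM in control libraries and 401, 390 and 449.8 TPM with MMA. Its groups did not overlap, and it rose by 0.73 (SE 0.07, adjusted p = 0.000665; 0.81 scaled). The kinase gene Pim1 went from 8.69, 10.8 and 8.67 TPM to 15.9, 15.4 and 16.7 TPM, again without overlap, a rise of 0.72 (SE 0.09, adjusted p = 0.00101; 0.79 scaled).

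Frat2, which encodes a GSK3-binding protein of the Wnt pathway, rose by 0.99 (adjusted p = 0.00173 in limma). The TNF family ligand gene Tnfsf18 rose by 0.81, the IL-33 receptor gene Il1rl1 by 0.66 and the hyaluronan-binding protein gene Tnfaip6 by 0.64. Htatip2 and Sapcd1 rose by 0.65 and 0.60. After scaling these 6 genes rose by 0.67 to 1.06. Plk2, a polo-like kinase gene, stood higher in abundance, at 252, 298 and 301 TPM in control libraries and 399.9, 429.7 and 434 TPM with MMA. It rose by 0.57 (SE 0.07, adjusted p = 0.00101; 0.65 scaled). Pclaf, a PCNA-binding factor of dividing cells, is listed at 2 loci, one of them annotated as a pseudogene, that may share reads. The pseudogene locus rose by 2.06 (adjusted p = 0.00184) and the protein-coding locus by 0.63 (adjusted p = 0.0123), and the level of each is uncertain.

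In the other direction, Chka, the choline kinase that starts phosphatidylcholine synthesis, held 59.9, 58.8 and 59.4 TPM in control libraries and 37.4, 37.6 and 33.4 TPM with MMA. Both groups were tight and far apart, with a fall of 0.70 on the log2 scale (SE 0.05, limma adjusted p = 5.62e-05) and of 0.63 after scaling (adjusted p = 7.24e-05). Prrx2, a mesenchymal homeobox gene, held 34.4, 35.7 and 37.9 TPM against 22.7, 22.9 and 20.5 TPM and fell by 0.68 (SE 0.08, adjusted p = 0.000973; -0.61 scaled). Shc4, a signalling adaptor gene, fell by 0.68, Trpv2, a cation channel gene, by 0.71, Pde4a, a cAMP phosphodiesterase gene, by 0.66, Ankrd12 by 0.65 and the zinc finger gene Zbtb26 by 0.64, with adjusted p-values from 0.00221 to 0.00904 and scaled differences from -0.65 to -0.56. H4c14, a histone H4 gene, fell by 1.15 (adjusted p = 0.0043; -1.08 scaled). Its class of mRNA ends in a stem-loop in place of a poly(A) tail, and polyadenylated RNA was sequenced, so its level here is uncertain.

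Several large differences depended on 1 library. Idnk, a gluconate kinase gene, held 3.36, 4.42 and 3.49 TPM in control libraries and 11.4, 27.7 and 11.3 TPM with MMA. Its difference of 1.79 (limma adjusted p = 0.0202) became 1.39 without MMA replicate 2, with an adjusted p of 0.0744, and the adjusted p was 0.0669 without control replicate 1 and 0.0616 without control replicate 3. Hes1, a Notch target, held 101, 111 and 115 TPM against 92.7, 47.5 and 41.4 TPM, so MMA replicate 1 lay close to the control libraries. Its fall of 0.93 (adjusted p = 0.0129) became a difference of -0.70 without MMA replicate 3 (adjusted p = 0.0557).

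**Figure D2:**
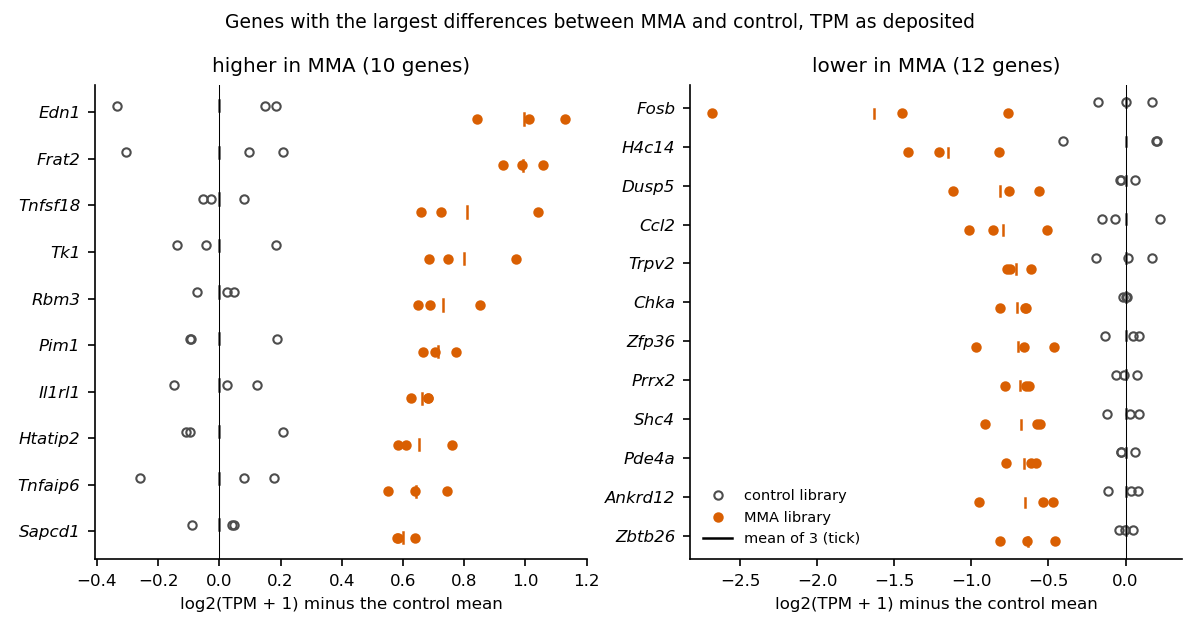
Per-library log2(TPM + 1) minus the control mean for 10 genes higher and 12 genes lower with MMA whose call held in all 6 fits that left out 1 library. Open grey circles are control libraries, filled orange circles MMA libraries and ticks the mean of 3 libraries. The genes were chosen among those without overlap, so no MMA library falls within the range of the control libraries. Fosb has the widest spread.

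Immediate early genes are switched on within minutes of a growth factor or stress signal and encode transcription factors and regulators of mRNA decay. Of 25 tested members, 11 were called lower and 3 higher with MMA as deposited, and 10 lower and 7 higher after scaling. The median difference was -0.28 (-0.20 scaled), against -0.072 (0 scaled) for all tested genes. Of all tested genes, 3.85% were called higher and 16.5% lower (8.16% and 6.91% scaled), and each list count below stands beside these shares. The AP-1 subunit gene Fosb showed the largest fall, from 131, 117 and 103 TPM in control libraries to 68.4, 42.1 and 17.4 TPM with MMA. No MMA library reached the lowest control library, but they differed widely among themselves, and the fall of 1.63 had a standard error of 0.34 (limma adjusted p = 0.00773; -1.55 scaled). Junb, another AP-1 subunit gene, was tighter, at 81.9, 78.5 and 69.4 TPM against 48.8, 50.6 and 49.0 TPM, and fell by 0.62 (SE 0.08, adjusted p = 0.00164; -0.54 scaled). The zinc finger factor gene Egr1 held 142, 139 and 120.0 TPM against 97.3, 98.5 and 70.6 TPM and fell by 0.60 (SE 0.11, adjusted p = 0.00553; -0.52 scaled).

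Zfp36, which destabilises cytokine mRNAs, held 73.7, 71.7 and 63.0 TPM in control libraries and 49.99, 43.6 and 34.9 TPM with MMA. Its groups did not overlap and it fell by 0.70 (SE 0.13, limma adjusted p = 0.00488; -0.62 scaled). Ier2 fell by 0.55 from 31.0, 28.1 and 27.9 TPM to 20.97, 18.7 and 18.8 TPM (SE 0.09, adjusted p = 0.00302; -0.47 scaled). Smaller falls were those of the AP-1 gene Fosl1 (0.37), the antiproliferative gene Btg2 (0.36), Klf10 (0.31) and Srf (0.28), the serum response factor gene itself, with adjusted p-values between 0.00651 and 0.00761 and scaled differences from -0.29 to -0.20. Fos fell by 0.60 (adjusted p = 0.0191), but without MMA replicate 3 its difference was -0.40 (adjusted p = 0.0641) and without control replicate 1 it was -0.53 (adjusted p = 0.0757). The fall of Klf2 by 0.40 (adjusted p = 0.0415) was not called after scaling (adjusted p = 0.0779) or without any 1 of the 6 libraries. The 11 lower calls were 9 to 11 when 1 library was left out, and 9 genes held throughout.

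Atf3, a stress-induced factor, went the other way, from 30.8, 33.8 and 33.7 TPM to 40.8, 44.3 and 42.9 TPM, a rise of 0.37 (SE 0.06, limma adjusted p = 0.00324; 0.45 scaled). Of the other 2 higher calls, Myc (0.26, adjusted p = 0.0284) lost its call without any 1 of the 6 libraries, with adjusted p from 0.0521 to 0.085, and Ier3 (0.19, adjusted p = 0.0375) kept it without MMA replicate 1 alone, leaving 1 higher call in the list without each of the other 5 libraries. Jun (0.13, adjusted p = 0.351) and Jund (-0.00, adjusted p = 0.987) were not called. In the feedback that follows MAP kinase signalling, Dusp5 and Etv5 fell as well. Dusp5, a phosphatase of nuclear ERK, held 36.1, 38.5 and 36.0 TPM against 24.7, 21.4 and 16.4 TPM and fell by 0.81 (SE 0.11, adjusted p = 0.00173; -0.74 scaled). Etv5, an ETS factor gene, fell by 0.49 (SE 0.08, adjusted p = 0.0032; -0.41 scaled). Over the 15 tested genes of that list, 3 were lower and 1 higher, the higher one not in any fit with 1 library left out. These counts lie near the shares of all tested genes, 16.5% lower and 3.85% higher.

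**Figure D3:**
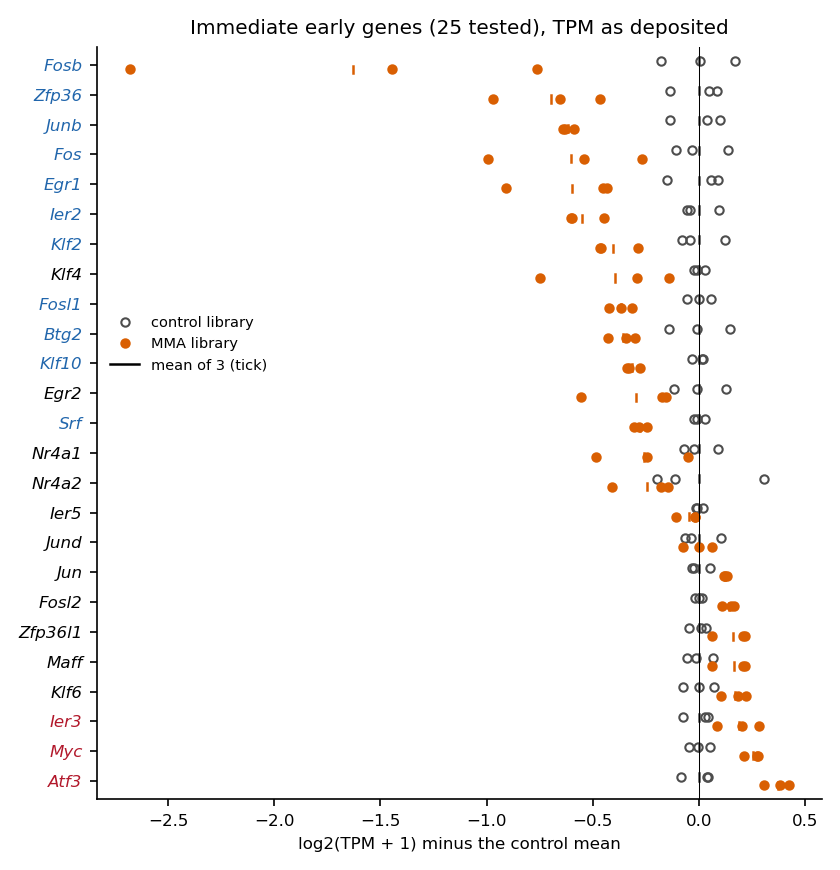
Per-library log2(TPM + 1) minus the control mean for the 25 tested immediate early genes, with control libraries as open grey and MMA libraries as orange circles. Names in blue mark genes called lower, in red genes called higher and in black genes not called. Fosb lies lowest at -1.63 and Atf3 highest at 0.37.

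Promoters of immediate early genes are known for cAMP response elements and for CArG boxes, the site of Srf. In RefSeq promoter sequences (assembly GRCr8, 250 bases before the annotated start, both strands searched), TGACGTCA was found in 4 of 18 immediate early genes with a sequence (Btg2, Ier2, Jund and Maff), against 3.13% of tested genes and 1.59% of all starts of this length. The CArG box was found in 5 of 18 (Egr1, Egr2, Klf6, Srf and Zfp36), against 1.4% of tested genes and 1.5% of all starts. Jund and Maff hold TGACGTCA, and Egr2 and Klf6 the CArG box, and these genes were not called. Of the 8 called members with a sequence, 2 held TGACGTCA and 3 the CArG box. Matches are a description of letters, not of binding. The promoters of Ier2 (chr19:40399123-40399372, plus strand) and Zfp36 (chr1:92799109-92799358, minus strand) are shown 5′ to 3′ for 2 genes that fell, with TGACGTCA and the CArG box in capitals.
Ier2: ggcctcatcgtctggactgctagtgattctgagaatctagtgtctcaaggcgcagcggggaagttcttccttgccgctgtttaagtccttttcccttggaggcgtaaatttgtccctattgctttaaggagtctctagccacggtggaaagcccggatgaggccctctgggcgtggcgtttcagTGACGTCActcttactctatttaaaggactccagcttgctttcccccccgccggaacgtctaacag
Zfp36: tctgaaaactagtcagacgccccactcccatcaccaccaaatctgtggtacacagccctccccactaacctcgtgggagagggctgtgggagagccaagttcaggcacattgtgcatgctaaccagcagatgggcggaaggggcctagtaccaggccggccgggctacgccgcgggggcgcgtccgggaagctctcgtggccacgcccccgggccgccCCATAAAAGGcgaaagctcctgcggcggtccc

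Inflammatory mediators moved in both directions. In the list of 15 tested chemokine, cytokine and related inflammatory genes, 4 were higher and 4 lower as deposited, and 4 and 2 after scaling. Of all tested genes, 3.85% were higher and 16.5% lower as deposited, and 8.16% and 6.91% after scaling. The 4 higher genes were Tnfsf18, Il1rl1, Tnfaip6 and Ptgs2. Ptgs2, the inducible cyclooxygenase, held 47.4, 55.9 and 57.4 TPM against 72.3, 75.2 and 68.1 TPM and rose by 0.42 (SE 0.07, limma adjusted p = 0.0041; 0.50 scaled). Ccl2, the main monocyte chemokine, fell by 0.79 from 8.59, 9.20 and 11.5 TPM to 6.51, 4.28 and 4.88 TPM (SE 0.16, adjusted p = 0.00728; -0.73 scaled). Csf1, the macrophage growth factor gene, fell by 0.36 from 176, 181 and 183 TPM to 142, 140.3 and 138 TPM (SE 0.05, adjusted p = 0.00186; -0.28 scaled). The 4 lower calls were 2 without MMA replicate 3 and 2 without control replicate 1. Of 13 tested NF-kB pathway genes, 6 were lower and 0 higher (3 and 0 scaled), and 3 were lower without MMA replicate 3, control replicate 1 or control replicate 3. Those that held were Relb (-0.51, adjusted p = 0.00407) and Nfkb2 (-0.32, adjusted p = 0.00783), the pair of the noncanonical branch, and the inhibitor gene Nfkbib (-0.33, adjusted p = 0.00321).

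Genes of DNA synthesis and cell division were higher with MMA alone. Thymidine kinase Tk1, which salvages thymidine in S phase, held 27.0, 31.8 and 25.2 TPM in control libraries and 47.5, 45.4 and 55.5 TPM with MMA. The groups did not overlap, and Tk1 rose by 0.80 (SE 0.11, limma adjusted p = 0.00173; 0.88 scaled). Of 15 tested genes that supply deoxynucleotides, 7 were higher and 0 lower (8 and 0 scaled), with a median difference of 0.16 (0.24 scaled). Both subunits of ribonucleotide reductase rose, Rrm2 by 0.38 (adjusted p = 0.00551) and Rrm1 by 0.24 (adjusted p = 0.00812). The thymidylate synthase gene Tyms held 19.9, 19.8 and 19.0 TPM against 26.2, 26.6 and 27.0 TPM and rose by 0.42 (SE 0.09, adjusted p = 0.0074; 0.50 scaled). The kinase Dck and the deaminase Dctd rose by 0.31 each, but Dck was not called without control replicate 1 (adjusted p = 0.0543) nor Dctd without MMA replicate 3, control replicate 1 or control replicate 3 (adjusted p from 0.063 to 0.0677).

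Of 36 tested genes of replication origins and forks, 13 were higher and 0 lower (20 and 0 scaled), with a median difference of 0.23 (0.31 scaled). The count fell to 6 without MMA replicate 1, 2 without MMA replicate 3, 4 without control replicate 1 and 2 without control replicate 3. The 2 that held in every such fit were Rfc2, a clamp loader subunit that held 23.1, 23.7 and 23.1 TPM against 30.0, 29.6 and 34.9 TPM (0.42, SE 0.07, limma adjusted p = 0.00363; 0.49 scaled), and Prim1, the primase catalytic subunit, at 65.9, 50.6 and 55.7 TPM against 76.5, 79.6 and 77.8 TPM (0.44, SE 0.09, adjusted p = 0.00624; 0.52 scaled). The helicase genes Mcm6 (0.55, adjusted p = 0.0144) and Mcm7 (0.47, adjusted p = 0.0148) were not called without MMA replicate 3 or control replicate 3, with adjusted p from 0.0602 to 0.0636. Among G1/S regulators, Cdkn2a, an inhibitor gene of the cyclin D kinases, rose by 0.31 (adjusted p = 0.00805), the S phase cyclin gene Ccna2 rose by 0.28 (adjusted p = 0.011) and E2f4, a repressive E2F gene, fell by 0.22 (adjusted p = 0.00805).

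Of 40 tested mitosis genes, 18 were higher and 0 lower (26 and 0 scaled), and 35 had a positive difference, with a median of 0.19 (0.26 scaled). Ccnb2, a mitotic cyclin gene, held 71.2, 79.8 and 74.7 TPM against 93.9, 97.3 and 101 TPM, a rise of 0.37 (SE 0.06, limma adjusted p = 0.00255; 0.45 scaled). Cdca3, which serves entry into mitosis, held 86.0, 96.1 and 94.7 TPM against 115, 117 and 123 TPM, a rise of 0.36 (SE 0.05, adjusted p = 0.0027; 0.43 scaled). In both genes every MMA library lay above every control library. Rises were smaller for the chromosomal passenger gene Cdca8 (0.29, adjusted p = 0.00713), the kinesin gene Kif20a (0.28, adjusted p = 0.00937) and the spindle genes Dlgap5 (0.27, adjusted p = 0.00518) and Tpx2 (0.26, adjusted p = 0.00722). These 6 were the calls held in all 6 fits, and the count was 10 without MMA replicate 3 and 6 without control replicate 1. The proliferation marker Mki67 and the kinetochore genes Cenpe and Cenpf were among the 5 members with a negative difference.

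Mitotic genes are known for a cell cycle homology region, often written TTTGAA, together with CCAAT boxes. TTTGAA was found in 16 of 35 mitosis genes with a RefSeq promoter sequence, against 11.3% of tested genes and 16.2% of all starts, and CCAAT in 26 of 35, against 37.8% and 34.0%. Of replication genes, 8 of 31 held at least 1 of the E2F strings TTTCCCGC, TTTCGCGC, TTTGGCGC or TTTGCCGC, against 3.7% of tested genes and 1.73% of all starts. These lists were compiled by function and the strings say nothing of the effect of MMA. The promoter of Cdca8 (chr5:142483200-142483449, minus strand) is shown because it carries both elements, 4 CCAAT boxes, all read as ATTGG on this strand, and 1 TTTGAA that overlaps the last of them.
Cdca8: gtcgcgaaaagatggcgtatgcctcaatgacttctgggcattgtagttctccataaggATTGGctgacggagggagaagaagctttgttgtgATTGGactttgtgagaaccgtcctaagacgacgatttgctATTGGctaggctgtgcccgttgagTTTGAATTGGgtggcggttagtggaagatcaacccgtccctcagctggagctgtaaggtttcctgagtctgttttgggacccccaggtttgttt

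Of 12 tested histone genes, 4 were higher and 1, H4c14, lower (5 and 1 scaled). The linker histone gene H1f0 held 399.7, 448 and 409 TPM in control libraries and 562, 571 and 589 TPM with MMA. It rose by 0.46 (SE 0.05, limma adjusted p = 0.00087; 0.53 scaled). H3f3b, which encodes the replacement histone H3.3, held 697, 734 and 752 TPM against 917, 922 and 898 TPM and rose by 0.33 (SE 0.04, adjusted p = 0.00087; 0.40 scaled). H2az2, a variant of H2A at promoters, rose by 0.37 (SE 0.07, adjusted p = 0.00682; 0.45 scaled). The fourth, H3f3a, had an adjusted p of 0.0333 at a difference of 0.16, and it was called in 1 of the 6 fits that left out 1 library.

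Lysosomal genes were lower with MMA. The lysosome digests material delivered by endocytosis and autophagy, and the V-ATPase is the proton pump that keeps it acidic. Of 40 tested genes for lysosomal enzymes and membrane proteins, 21 were lower and 0 higher as deposited, and 11 lower and 1 higher after scaling, with a median difference of -0.15 (-0.08 scaled). Npc1, which exports cholesterol from lysosomes, held 28.0, 27.9 and 28.8 TPM against 20.4, 19.8 and 18.7 TPM and fell by 0.50 (SE 0.06, limma adjusted p = 0.00087; -0.43 scaled). The protease gene Ctsl held 359, 364 and 408 TPM against 292, 286 and 275.5 TPM and fell by 0.40 (SE 0.06, adjusted p = 0.00184; -0.33 scaled). No library of either gene crossed into the other group. The calcium channel gene Mcoln1 fell by 0.37 (adjusted p = 0.00187), the peptidase gene Tpp1 by 0.33 (adjusted p = 0.00234) and the membrane protein gene Lamp1 by 0.22 (adjusted p = 0.00308), with scaled differences of -0.30, -0.25 and -0.15. Without any 1 library, 15 to 19 were lower, and 14 held in all 6 fits.

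Among V-ATPase subunits, 11 of 15 were lower and 0 higher (7 and 0 scaled), and 0 of 15 had a positive difference under either scaling. As deposited, the control and MMA libraries did not overlap in any of the 15. On that scale, 34.8% of all tested genes were lower without overlap, and 67.5% had a negative difference. After scaling, 20.6% of all tested genes were lower without overlap, and the scaled count for this list is not given here. The median difference was -0.21 (-0.13 scaled). The membrane subunit gene Atp6v0b held 109.8, 105 and 115 TPM against 76.8, 82.7 and 78.4 TPM and fell by 0.47 (SE 0.05, limma adjusted p = 0.00087; -0.39 scaled). The catalytic subunit gene Atp6v1a fell by 0.30 (adjusted p = 0.00376), Atp6v1c1 by 0.28 (adjusted p = 0.00417), the proteolipid gene Atp6v0c by 0.25 (adjusted p = 0.00431) and Atp6v0d1 by 0.21 (adjusted p = 0.00515), with scaled differences from -0.22 to -0.13. Without control replicate 3 the lower calls were 7, and 7 genes held in all 6 fits.

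TFEB and its relatives, which drive lysosomal genes, bind the palindrome TCACGTGA. It was found in 3 of 28 lysosomal genes with a RefSeq promoter sequence (Cln3, Ctsd and Lamp1) and in 1 of 12 V-ATPase genes (Atp6v0d1), against 1.68% of tested genes and 0.657% of all starts. Of the called members with a sequence, 2 of 15 lysosomal and 1 of 8 V-ATPase genes held it. The promoters of Lamp1 (chr16:83075064-83075313, minus strand) and Atp6v0d1 (chr19:50357249-50357498, minus strand) are shown, with the palindrome in capitals, as 2 genes that fell and carry it near the start.
Lamp1: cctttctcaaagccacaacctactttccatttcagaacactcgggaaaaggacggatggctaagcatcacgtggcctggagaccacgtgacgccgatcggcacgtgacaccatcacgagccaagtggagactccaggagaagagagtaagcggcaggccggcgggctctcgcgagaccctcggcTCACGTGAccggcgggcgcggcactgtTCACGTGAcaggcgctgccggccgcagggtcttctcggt
Atp6v0d1: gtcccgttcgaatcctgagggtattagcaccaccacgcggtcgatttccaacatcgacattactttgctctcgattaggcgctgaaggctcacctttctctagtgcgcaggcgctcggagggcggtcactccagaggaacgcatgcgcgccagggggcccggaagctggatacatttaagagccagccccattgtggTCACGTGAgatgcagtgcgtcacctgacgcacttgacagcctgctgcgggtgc

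Of 32 tested genes of autophagy and its TFEB regulators, 11 were lower and 0 higher (8 and 0 scaled), and 8 held in all 6 fits. The folliculin gene Flcn, which acts on the Rag GTPases, held 26.3, 25.0 and 24.6 TPM against 17.9, 16.8 and 17.6 TPM. It fell by 0.52 (SE 0.06, limma adjusted p = 0.00087; -0.44 scaled). Its partner gene Fnip1 held 20.0, 20.7 and 21.8 TPM against 14.8, 15.1 and 12.1 TPM and fell by 0.55 (SE 0.08, adjusted p = 0.00198; -0.47 scaled). The cargo receptor genes Optn and Sqstm1 fell by 0.37 (adjusted p = 0.00284) and 0.30 (adjusted p = 0.00805). In the list of mTORC1 and its amino acid sensors, 8 of 28 were lower and 1 higher (4 and 2 scaled), with 5 lower without MMA replicate 3 or control replicate 3. The Rag GTPase gene Rragc held 102, 107 and 110.0 TPM against 85.7, 82.9 and 79.97 TPM and fell by 0.35 (SE 0.04, adjusted p = 0.000973; -0.28 scaled). Wdr59 of the GATOR complex fell by 0.30 (adjusted p = 0.00327), and the mTORC1 inhibitor genes Tsc1 and Tsc2 fell by 0.29 each (adjusted p = 0.00707 and 0.0107). Deptor, another inhibitor of mTOR, rose by 0.26 (adjusted p = 0.00722).

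**Figure D4:**
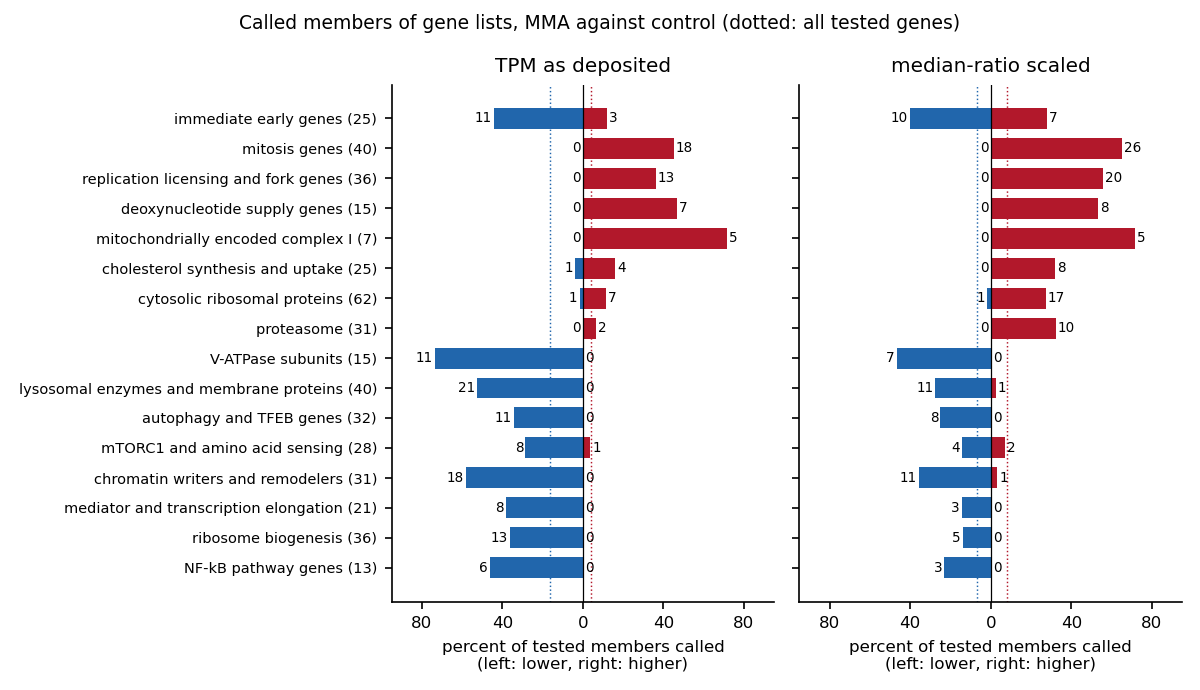
Percent of tested members of 16 gene lists called lower (left) or higher (right) with MMA, for TPM as deposited and after median-ratio scaling. Numbers are counts of called genes and dotted lines mark the percent of all 12263 tested genes. Mitosis genes have 18 higher and 0 lower calls, and V-ATPase subunits 0 higher and 11 lower.

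Complex I transcripts made from the mitochondrial genome rose. Complex I passes electrons from NADH into the respiratory chain, and 7 of its subunits are encoded in mitochondrial DNA. Of these 7, 5 were higher and 0 lower under both scalings, with a median difference of 0.30 (0.38 scaled). Mt-nd3 held 5373, 5523 and 6004 TPM in control libraries and 7592, 8233 and 8162 TPM with MMA. It rose by 0.51 (SE 0.06, limma adjusted p = 0.000985; 0.58 scaled), without overlap. Mt-nd1 held 1966, 2064 and 2049.6 TPM against 2739, 2792 and 2709.9 TPM and rose by 0.44 (SE 0.07, adjusted p = 0.0025; 0.52 scaled). Mt-nd2 and Mt-nd4l rose by 0.33 (adjusted p = 0.0071) and 0.30 (adjusted p = 0.00725).

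The other complex I genes of the mitochondrial genome were less clear. Mt-nd5 rose by 0.26 (limma adjusted p = 0.0347), with adjusted p from 0.0897 to 0.112 when MMA replicate 1, MMA replicate 2, control replicate 1 or control replicate 2 was left out. Mt-nd4 (0.16, adjusted p = 0.199) and Mt-nd6 (0.25, adjusted p = 0.249) were not called. Mitochondrial genes for cytochromes and ATP synthase gave 1 higher call in 6, Mt-co2 (0.27, adjusted p = 0.0307), which held without MMA replicate 3 alone. Nuclear genes for complex I gave 1 higher call in 34 (4 scaled) and those for complexes II to V gave 2 in 33 (5 scaled), beside 3.85% of all tested genes (8.16% scaled). Factors that transcribe, replicate and process mitochondrial DNA gave 0 calls in 21 (1 higher scaled), with 3 lower at an unadjusted p under 0.05. Mitochondrial ribosomal proteins gave 0 in 46 (6 higher scaled), with 4 higher and 1 lower at that unadjusted p.

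Chromatin regulators were lower with MMA, and mediator and elongation genes less steadily so. Of 31 tested histone-modifying and remodelling genes, 18 were lower and 0 higher as deposited, and 11 lower and 1 higher after scaling, with a median of -0.19 (-0.12 scaled). Kmt2c, a histone H3 methyltransferase gene of enhancers, held 13.1, 14.1 and 13.8 TPM against 9.91, 9.36 and 8.58 TPM and fell by 0.51 (SE 0.06, limma adjusted p = 0.00087; -0.44 scaled). Its relatives Kmt2d and Kmt2a fell by 0.45 (adjusted p = 0.00365) and 0.41 (adjusted p = 0.00473), the SWI/SNF subunit gene Arid1a by 0.35 (adjusted p = 0.00589) and the demethylase gene Kdm2a by 0.28 (adjusted p = 0.00313). Between 12 and 16 were lower when 1 library was left out, with 12 in the fit without control replicate 1. Mediator and elongation genes gave 8 lower of 21 (3 scaled), but 2 without MMA replicate 2 and 3 without MMA replicate 3 or any 1 control library. In the fit without MMA replicate 2, 1366 of all 12263 tested genes were lower, so 2 of 21 was no more than the general share. The 2 that held were the elongation genes Ccnt2 (-0.45, adjusted p = 0.00407) and Cdk13 (-0.26, adjusted p = 0.00645).

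Gene length moved with these differences. The 11178 tested genes with a genomic span in the RefSeq annotation of GRCr8 were divided by span into 5 groups of like size. The median log2 difference after scaling went from 0.05 in the shortest group (median span 3.93 kb) to -0.043 in the longest (120 kb). As deposited it went from -0.02 to -0.116. After scaling, the shortest group (2237 genes) held 236 higher and 86 lower calls, and the longest (2236 genes) 110 higher and 251 lower. As deposited, the shortest held 111 higher and 226 lower calls, and the longest 48 and 569. Of all tested genes, 8.16% were higher and 6.91% lower after scaling, and 3.85% and 16.5% as deposited. The chromatin list had a median span of 77.3 kb, the immediate early list 5.05 kb and the lysosomal list 20.5 kb. The part of span in the chromatin result was not tested.

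Ribosome-related lists were mixed. Of 36 ribosome biogenesis genes, 13 were lower and 0 higher (5 and 0 scaled), and 6 were lower without MMA replicate 2 or control replicate 3. Those that held included the rRNA gene transcription factor Ubtf (-0.27, limma adjusted p = 0.00477), the processing factor Rrp12 (-0.36, adjusted p = 0.00429) and the endonuclease Nob1 (-0.25, adjusted p = 0.00389). Of 62 tested cytosolic ribosomal proteins, 7 were higher and 1 lower (17 and 1 scaled), and 2 were higher without MMA replicate 3, 3 without control replicate 1 and 4 without control replicate 3. Rpl18 (0.14, adjusted p = 0.00713) and Rpl15 (0.29, adjusted p = 0.00669) rose. Ribosomal protein genes have many near-identical copies, so reads may be split between loci. Proteasome genes gave 2 higher of 31 (10 scaled), with 1 without MMA replicate 1, MMA replicate 3, control replicate 2 or control replicate 3, and the one that held was the core subunit gene Psmb1 (0.18, adjusted p = 0.00773).

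Of 20 tested propionate and cobalamin genes, 3 were lower and 0 higher (1 and 1 scaled), beside 16.5% of all tested genes called lower as deposited, and 1 was lower without MMA replicate 3 or control replicate 3. Mmut, the methylmalonyl-CoA mutase itself, held 9.65, 10.4 and 10.5 TPM in control libraries and 9.29, 8.61 and 7.24 TPM with MMA, without overlap, but the difference of -0.26 was not called (SE 0.09, limma adjusted p = 0.0614; -0.19 scaled). Lmbrd1, a lysosomal cobalamin transport gene, fell by 0.27 (adjusted p = 0.0111; -0.19 scaled, adjusted p = 0.0423), with an adjusted p of 0.0502 without MMA replicate 3. Tcn2, the plasma carrier of cobalamin, fell by 0.26 (adjusted p = 0.0151), but not after scaling (adjusted p = 0.0716) and not without control replicate 3 (adjusted p = 0.0592). Suclg1, a succinyl-CoA ligase gene, fell by 0.14 (adjusted p = 0.0215) and was not called after scaling (adjusted p = 0.322) or without MMA replicate 3 or any 1 control library (adjusted p from 0.0506 to 0.0841).

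Of 23 tested folate and methionine cycle genes, 3 were higher and 3 lower (4 and 1 scaled). Of all tested genes, 3.85% were higher and 16.5% lower (8.16% and 6.91% scaled), so the lower count was no more than the general share. Tyms, described above with the deoxynucleotide genes, was among the higher genes. Atic, the last enzyme of purine synthesis, fell by 0.19 (limma adjusted p = 0.00624) but was not called after scaling (adjusted p = 0.0871).

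Of 25 tested cholesterol synthesis and uptake genes, 4 were higher and 1 lower (8 and 0 scaled), the lower one not called without MMA replicate 2, MMA replicate 3 or any 1 control library. Acat2, the thiolase of the first step, held 27.4, 31.4 and 25.7 TPM against 37.7, 34.4 and 44.3 TPM and rose by 0.45 (SE 0.10, limma adjusted p = 0.011; 0.52 scaled). Beside Chka, 4 others of 15 choline and phospholipid genes were lower (5 in all, 3 scaled), with 3 lower without MMA replicate 2, control replicate 1 or control replicate 2. The ethanolamine kinase gene Etnk1 fell by 0.46 (adjusted p = 0.00375) and Pcyt1a, the rate-limiting step after choline kinase, by 0.23 (adjusted p = 0.00679).

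Bmp4, a ligand of the bone morphogenetic protein (BMP) family, held 60.2, 64.9 and 66.6 TPM against 86.2, 89.9 and 87.8 TPM and rose by 0.46 (SE 0.07, limma adjusted p = 0.00313; 0.53 scaled), while the BMP receptor gene Bmpr2 fell by 0.31 (adjusted p = 0.00281), the co-receptor gene Tgfbr3 by 0.45 (adjusted p = 0.00398) and Smad9, a transducer of BMP signals, by 0.59 (adjusted p = 0.00615). Of the 25 tested genes of that list 2 were higher and 7 lower (2 and 3 scaled), with 1 higher without any 1 library, 4 lower without MMA replicate 2, MMA replicate 3 or control replicate 3 and 3 lower without control replicate 1. Of 16 clock genes, 2 were higher and 6 lower (3 and 5 scaled), with 3 lower without MMA replicate 3 or control replicate 3 and 1 higher without MMA replicate 1, MMA replicate 2 or control replicate 3. Per2 fell by 0.48 (adjusted p = 0.00255) and Clock by 0.37 (adjusted p = 0.00512), and the repressor gene Nfil3 rose by 0.31 (adjusted p = 0.00984). Of 10 tested caveolae genes, 2 were higher and 0 lower (4 and 0 scaled), and 2 were higher with any 1 library left out. They were the caveolin gene Cav3, which rose by 0.22 (adjusted p = 0.00546), and the cavin gene Cavin3, which rose by 0.34 (adjusted p = 0.00812).

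MMA added to cells given FA gave fewer calls, 196 higher (1.6%) and 1092 lower (8.9%) of 12263 genes (10.5% in all). After scaling, 421 were higher (3.43%) and 302 lower (2.46%), 5.9% in all. Fitted to its own 6 libraries alone, the comparison gave 23 calls, 4 higher and 19 lower, where MMA against control fitted in that way gave 2964, and with every gene above 0 in at least 1 library it gave 699. The counts with FA therefore rest on a spread estimated from all 12 libraries. FA libraries were the least alike within their group, with pairwise correlations of 0.9874 to 0.9898. The ranges were 0.9908 to 0.9922 in control, 0.9901 to 0.9925 in MMA and 0.9915 to 0.9924 in MMA+FA libraries. Fewer calls thus do not show a smaller effect of MMA with FA. The part of this spread in the counts and in the interaction calls was not tested. The contrast sets MMA+FA libraries against FA libraries, none of which is in MMA against control, but both contrasts take their estimate of spread from the same fit. It shared 467 calls in the same direction, 27 higher and 440 lower, which are 18.7% of the calls without FA and 36.3% of those with FA, and 36 genes were called in opposite directions. Under both scalings 112 calls were shared, of 1319 without and 497 with FA. The count with FA was 357 without FA replicate 1, 505 without FA replicate 3, 362 without MMA+FA replicate 2, 431 without MMA+FA replicate 3 and 2010 when FA replicate 2 was left out. Prrx2 fell by 0.82 with FA (limma adjusted p = 0.00134) against 0.68 without. Tnfsf18 rose by 0.47 (adjusted p = 0.045) against 0.81. Edn1 had a difference of 0.37 with FA (adjusted p = 0.0842) and Fosb one of -0.26 (adjusted p = 0.643). The difference of effects between the presence and absence of FA was itself not called for Edn1 (adjusted p = 0.0947) or Fosb (adjusted p = 0.159).

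The difference between the effects of MMA with and without FA was called for 295 genes (2.41%), 115 with a higher (0.938%) and 180 with a lower effect (1.47%) when FA was present. After scaling it was called for 326 genes (2.66%), 127 with a higher (1.04%) and 199 with a lower effect (1.62%). Named genes were mostly chosen by the difference without FA, which enters the interaction with opposite sign, so their choice favours interactions against that difference. Rbm3 rose by 0.73 without FA and differed by 0.06 with it (interaction adjusted p = 0.0112 in limma), and Chka fell by 0.70 and by 0.21 (adjusted p = 0.0112). Leaving out a control library reduced the 295 calls to 85 (replicate 1), 182 (replicate 2) or 96 (replicate 3), and leaving out an MMA library to 154, 132 or 109 in the same order of replicates. The calls were 92 without FA replicate 1, 177 without MMA+FA replicate 1 and 125 without MMA+FA replicate 2, and rose to 496 when FA replicate 2 was left out.

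With FA, 39 of 40 mitosis genes had a negative difference, 0 were higher and 15 lower, with a median of -0.19 (-0.11 scaled), and the interaction was called for 18 of the 40, all with a lower effect when FA was present. Dlgap5 rose by 0.27 without FA and fell by 0.21 with it (interaction adjusted p = 0.0112 in limma), Tpx2 rose by 0.26 and fell by 0.22 (adjusted p = 0.0121), and Cdca3 rose by 0.36 and differed by -0.15 (adjusted p = 0.0118). These 3 interactions were called with any 1 of the 12 libraries left out. The 18 interaction calls were 5 to 10 without any 1 of the control or MMA libraries, FA replicate 1, MMA+FA replicate 1 or MMA+FA replicate 2, and 15, 18 and 20 without FA replicate 3, FA replicate 2 and MMA+FA replicate 3. The 15 lower calls with FA were 2 without FA replicate 1, 3 without MMA+FA replicate 2, 8 without MMA+FA replicate 1 and 9 without FA replicate 3. They were 10 with every gene above 0 tested and 0 when fitted to the 6 FA and MMA+FA libraries alone.

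Lysosomal and V-ATPase genes, lower with MMA alone, gave 2 higher and 1 lower and 1 higher and 0 lower calls with FA, and none when fitted to the 6 FA and MMA+FA libraries alone. Interactions were called for 8 of 40 and 6 of 15. Atp6v0b fell by 0.47 without FA and differed by 0.16 with it (interaction adjusted p = 0.00849 in limma), and Npc1 fell by 0.50 and differed by 0.02 (adjusted p = 0.0116), both with any 1 library left out. Lamp1, Atp6v0d1 and Rragc, at -0.22, -0.21 and -0.35 without FA, lay at 0.09, 0.12 and 0.07 with it, and their interactions also held (adjusted p = 0.0128, 0.0147 and 0.0112). The 8 lysosomal calls were 4 without MMA replicate 3, FA replicate 1, MMA+FA replicate 2, control replicate 1 or control replicate 3 and 5 without MMA replicate 2 or MMA+FA replicate 1. The 6 V-ATPase calls were 2 without FA replicate 1 or control replicate 3, 3 without MMA replicate 2, MMA replicate 3 or control replicate 1, 4 without MMA+FA replicate 2 and 9 when FA replicate 2 was left out.

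All 7 complex I genes of the mitochondrial genome were higher with FA, with a median of 0.38 (0.45 scaled), and 4 were without FA replicate 1, FA replicate 3, MMA+FA replicate 2 or MMA+FA replicate 3. Of 31 chromatin genes 11 were lower with FA, with a median of -0.17 (-0.10 scaled), and 2 without FA replicate 1, 3 without FA replicate 3, 7 without MMA+FA replicate 1, 2 without MMA+FA replicate 2 and 7 without MMA+FA replicate 3. Fitted to the 6 FA and MMA+FA libraries alone, 0 of either list were called, and with every gene above 0 tested 4 complex I genes were higher and 7 chromatin genes lower. Kmt2c fell by 0.41 with FA (limma adjusted p = 0.00372) against 0.51 without. The interaction was called in limma for 0 of the 7 and 0 of the 31 genes, with 1 and 2 at an unadjusted p under 0.05, which does not show that the effects were equal.

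**Figure D5:**
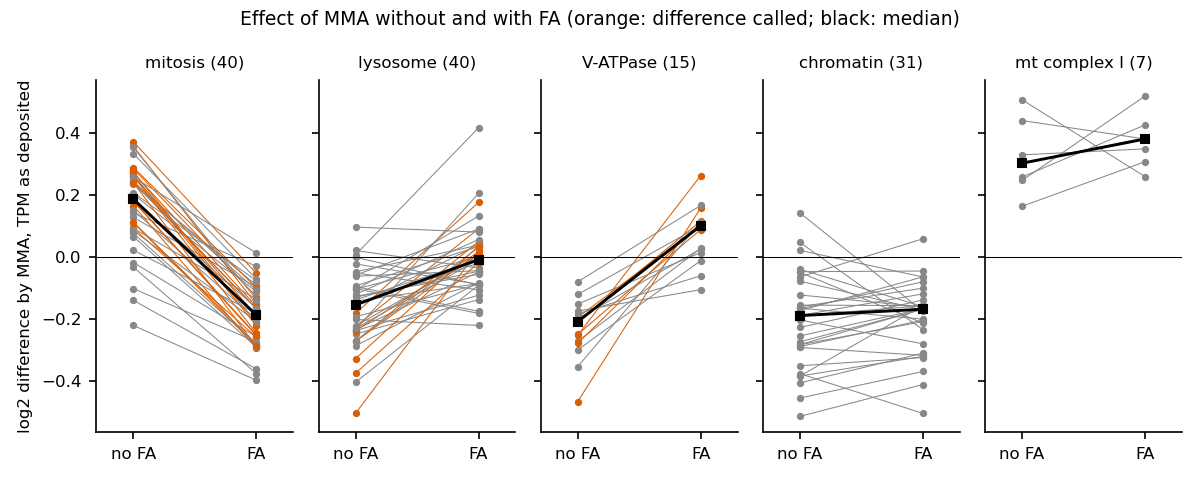
Log2 difference made by MMA without FA (left of each panel) and with FA (right) for each tested member of 5 gene lists, on the log2(TPM + 1) scale as deposited, with 1 line per gene. Orange lines have a called interaction, grey lines do not, and black squares mark the list's median. The median of mitosis genes crosses 0, from 0.19 to -0.19, and that of complex I genes of the mitochondrial genome stays above it, at 0.30 and 0.38.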

How the data were processed

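Per the labels, TRIzol was used to extract the RNA of the 12 libraries and a stranded Illumina mRNA kit to prepare them. The submitters' processing notes name fastp, HISAT2 and the build mRatBN7.2. The sources used here give no versions, settings or annotation, and RSEM appears in the name of the deposited matrix alone. The authors deposited TPM for 30562 genes, of which 4380 had no symbol.

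From these values, log2(TPM + 1) of the 12263 genes averaging 1 TPM or more was fitted in limma (3.58.1, R 4.3.3) with 1 mean per group over all 12 libraries and a mean-variance trend (8 residual and 4.317 prior degrees of freedom). The tests were MMA against control, MMA+FA against FA, and the interaction, with calls made where p adjusted by Benjamini-Hochberg was under 0.05. Differences on this scale understate those of low genes. For median-ratio scaling, a library's factor was the median over genes of its TPM divided by the gene's geometric mean. Factors were 1.04 to 1.053 in control and 0.9749 to 1.003 in MMA libraries.

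The libraries, gene lists, named genes and tests were chosen with earlier results of these data known. Named genes were called genes of at least 5 TPM in the higher group whose libraries did not overlap, the 15 with the largest difference each way, up to 4 called members each way of every list, and all tested members of 6 lists; other list members could be named with their values. A few genes covered by this rule are left out here. List symbols with several identifiers were taken at the most abundant one. No 2 libraries held identical values. The fit of MMA against control was tested on simulated data (12263 genes, 5 runs). It recovered 48% of changes of 0.3, 87.2% of 0.5, 97.6% of 1 and 100% of 2 on the log2 scale, with 6.6 false calls per run. Changes were planted in a small set of the more abundant genes, with independent normal noise and no shift common to many genes. The false calls per run therefore cannot be read as an error count for the 2501 calls, and the effect of scaling was not simulated.

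Alternatives were median-ratio scaling, TPM without mitochondrially encoded genes, a pseudocount of 0.1, other filters, only the 6 libraries compared, a replicate block, and leaving out each library. Promoter sequences and gene spans are from RefSeq tables of GRCr8, another build than that of the values; 9232 of 11357 tested symbols had a promoter. Plots used Python 3.11.15, pandas 2.3.3 and matplotlib 3.10.9.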

Additional observations from a re-analysis of the deposited data

Results flagged for a closer look

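The effect of MMA differed between cells with and without FA for 36 of the genes chosen by the rule for naming, by the interaction term in limma at an adjusted p under 0.05. Most were chosen by a called difference without FA, and the interaction contains that same difference with opposite sign. The choice thus favours interactions that run against it, and the 36 are no independent evidence on FA. Each value below is the log2 difference made by MMA with FA minus that without FA, so a negative value marks a gene whose effect was lower with FA present. Among genes of DNA synthesis and cell division the values were Tk1 (-0.76), Rrm2 (-0.45), Rrm1 (-0.29), Rfc2 (-0.47), Ccna2 (-0.43), Ccnb2 (-0.42), Cdca3 (-0.51), Dlgap5 (-0.49), Cdca8 (-0.39), Kif20a (-0.41) and Tpx2 (-0.49). The pseudogene locus of Pclaf, whose level is uncertain, had -2.44, from 2.06 without FA to -0.38 with FA (adjusted p = 0.0146). The histone genes H1f0 (-0.54) and H3f3b (-0.33) also had lower effects with FA.

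Genes of the lysosome and its signalling had higher effects with FA, with falls under MMA alone. The values were Atp6v0b (0.62), Atp6v1c1 (0.39), Atp6v0c (0.34) and Atp6v0d1 (0.32) for V-ATPase subunits. For lysosomal genes they were Npc1 (0.53), Mcoln1 (0.36), Lamp1 (0.31) and Tpp1 (0.36). For the Rag GTPase pathway they were Flcn (0.43), Fnip1 (0.58) and Rragc (0.42). For choline pathway genes they were Chka (0.49) and Pcyt1a (0.29), and for an NF-kB inhibitor gene and an integrin gene Nfkbib (0.42) and Itga3 (0.50). Other genes with lower effects under FA were Rbm3 (-0.67), Pim1 (-0.63), Il1rl1 (-0.84), Htatip2 (-0.75), Sapcd1 (-0.83), Plk2 (-0.44) and Ccn1 (-0.37).

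With each of the 12 libraries left out in turn, the interaction was called in every fit for 15 of the 36 genes, namely the Pclaf pseudogene locus, Cdca3, Dlgap5, Tpx2, H1f0, H3f3b, Atp6v0b, Atp6v0d1, Npc1, Lamp1, Rragc, Chka, Rbm3, Il1rl1 and Sapcd1. Plk2 was called in 1 of the 12 fits and Kif20a in 2, the fewest among them. Groups held 3 libraries each, so no single library was tested as standing apart from its group.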

How the results depend on the processing

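For MMA against control, the 2501 calls became 1848 after median-ratio scaling, 2154 without mitochondrially encoded genes, 2501 at a pseudocount of 0.1, 1973 with every gene above 0, 2417 at a mean of at least 5 TPM and 2964 with only the 6 libraries compared. Leaving out 1 library gave 1173 to 1898. The lower share moved most with scaling, from 2029 of 2501 calls to 847 of 1848, and all 1319 calls shared by both scalings kept their direction. For MMA added to FA, the 1288 calls became 723 after scaling (421 higher, 302 lower), 699 with every gene above 0, 23 with only the 6 libraries compared, and 357 to 2010 with 1 library left out. The 295 interaction calls became 181 with every gene above 0 and 85 to 496 with 1 library left out. Causes of these moves were not tested. Of the genes given in the report with values for MMA against control, no called one changed direction under these alternatives. Jund, not called at -0.00, changed sign, to 0.0737 after scaling and 0.015 without mitochondrially encoded genes, and lay between -0.0372 and 0.0474 with 1 library left out. The depth behind each TPM is unknown, so counting error could not be weighed.

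The groups share replicate numbers in the labels. Deviations of same-numbered MMA and control libraries correlated at -0.108, -0.0988 and 0.00888, and those of MMA+FA and FA at -0.0848, -0.0725 and -0.0314. No library correlated best with its own number. Values this weak cannot settle whether same-numbered libraries were handled together, and the labels do not say. With the replicate block, 2198, 966 and 214 genes were called in the 3 comparisons, and 2 of the genes given in the report lost their call, Mt-nd5 and H3f3a.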
